A study of Mus musculus with 27 samples.

Results

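A Runx2 peak without a called Runx1 peak was found at 1266 of the 8741 regions that lost accessibility in mK4 cells lacking Runx1. There were 55649 ATAC-seq regions in all. A region entered this group if it was in the deposited list of regions that close in Runx1KO cells, shared no base with a Runx1 ChIP-seq peak of control cells, and shared at least 1 bp with a Runx2 peak of control or of Runx1KO cells. The other closing regions were 1028 that overlapped a Runx1 peak (Runx1-bound) and 6447 that overlapped no Runx peak. A further 6716 regions kept their accessibility and also had Runx2 without Runx1, and served as the matching stable group. Throughout, without Runx1 means that no Runx1 peak was called, which is not a measured absence of Runx1. The lists of control cells held 10187 Runx1 peaks and 17595 Runx2 peaks.

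The cells were mK4, a mouse line described in the labels as kidney metanephric mesenchyme, grown in 10% FBS to confluency. Control cells, also labelled WT, were compared with Runx1KO sub-lines, in which CRISPR/Cas9 removed the exon of Runx1 that holds the start codon used in mK4 cells. A second mutant, ZebDKO, lost start codon exons of both Zeb1 and Zeb2 in the same way. Among the samples of the series it has RNA-seq alone, while the paper also reports ATAC with qPCR near Grhl2 in ZebDKO cells. Each of the 3 RNA-seq groups had 3 libraries, and the labels do not say whether replicates of a group came from separate clones. ChIP-seq peaks had been called after pooling the replicates of a group, and the ATAC-seq lists hold no values per replicate, so no spread between replicates could be attached to a region.

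Runx1 and Runx2 are DNA-binding proteins of the Runt domain family. Both pair with the shared partner Cbfb and read the same core sequence, TGTGGT or its complement ACCACA, and both can recruit activators or the Tle corepressors. Runx1 is best known from blood development and Runx2 from bone, where it drives genes such as Alpl. A region where ATAC-seq signal is high is open chromatin, and most open regions away from gene starts in a cell are candidate enhancers. AP-1, the dimers of Fos and Jun proteins, binds TGACTCA or TGAGTCA at many such regions.

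Sequence from mm9, the build of the deposited files, is shown for 8 regions. These are the regions with the strongest Runx2 peaks, and those nearest to the genes that fell the most, for which the window shown held a Runx motif. Each window is 120 bp centred on the summit of the stronger Runx2 peak, on the plus strand, with Runx motifs and AP-1 motifs in capitals and all other bases in lower case.
Upstream of BC052040, chr2:115309394-115309513: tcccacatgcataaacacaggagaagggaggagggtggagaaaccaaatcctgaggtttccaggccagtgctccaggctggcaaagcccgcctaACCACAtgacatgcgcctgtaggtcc
Upstream of Alpl, chr4:137363608-137363727: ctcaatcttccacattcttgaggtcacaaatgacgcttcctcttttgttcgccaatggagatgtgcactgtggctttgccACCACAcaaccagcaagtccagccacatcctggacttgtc
Intron of Pde8a, chr7:88464700-88464819: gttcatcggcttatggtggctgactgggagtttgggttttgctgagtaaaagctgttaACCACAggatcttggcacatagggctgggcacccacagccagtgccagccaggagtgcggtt
Upstream of Gsn, chr2:35085871-35085990: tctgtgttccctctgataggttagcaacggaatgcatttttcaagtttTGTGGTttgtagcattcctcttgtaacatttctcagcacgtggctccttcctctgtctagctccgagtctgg
Intergenic, nearest start Akap7, chr10:24792567-24792686: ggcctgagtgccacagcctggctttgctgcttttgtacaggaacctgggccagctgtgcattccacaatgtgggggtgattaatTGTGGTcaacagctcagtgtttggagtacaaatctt
Intron of D930014E17Rik, chr7:116852704-116852823: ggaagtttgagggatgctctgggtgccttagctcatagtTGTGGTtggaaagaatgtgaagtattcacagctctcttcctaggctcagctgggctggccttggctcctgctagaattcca
Upstream of Col6a2, chr10:76111599-76111718: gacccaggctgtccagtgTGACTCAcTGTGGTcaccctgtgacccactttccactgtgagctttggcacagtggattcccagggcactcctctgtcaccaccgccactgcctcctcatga
Upstream of Igfbp5, chr1:72925676-72925795: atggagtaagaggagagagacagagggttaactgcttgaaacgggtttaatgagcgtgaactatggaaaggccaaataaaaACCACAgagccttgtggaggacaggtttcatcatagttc

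In the Pde8a window the middle of the Runx motif was 1 bp from the summit, and in the Gsn window 9 bp. In the Col6a2 window an AP-1 motif and a Runx motif were separated by a single base, with the Runx motif 31 bp from the summit. The other windows held 1 Runx motif and no AP-1 motif, with the Runx motif 18 to 37 bp from the summit.

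The strongest control Runx2 peak in the group was upstream of BC052040 (chr2:115309053-115309829, intergenic), with a fold enrichment over local background at the summit of 8.76 in control cells and 4.27 in Runx1KO cells. It was followed by the region 11168 bp upstream of Alpl (chr4:137363105-137363828), which codes for tissue-nonspecific alkaline phosphatase, with 8.45 in control and 4.27 in Runx1KO cells. The intronic region of Pde8a, a cyclic nucleotide phosphodiesterase gene (chr7:88464420-88465459), had 7.93 and 6.99. The region upstream of the actin-severing protein gene Gsn (chr2:35085694-35086069) had 7.59 in control and 8.11 in Runx1KO cells. Regions named here were picked for a high fold in 1 line. A lower fold or no peak in the other line therefore cannot be read as a change. In Runx1KO cells the strongest Runx2 peak was 127278 bp from the start of Akap7, which codes for a protein kinase A anchoring protein (chr10:24792430-24792907), with a fold of 9.92 and no peak called in control cells. The region 145315 bp downstream of the start of Kitl, the gene for the Kit receptor's ligand, also had Runx2 in Runx1KO cells alone, at 8.74-fold.

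Few regions lay near the limits of the definition. The largest Runx2 overlap was 10 bp or less in 2 of the 1266 regions, the smallest overlap being 2 bp, and 2 closing regions without a Runx peak lay within 10 bp of a Runx2 peak, 1 of them touching it. The nearest Runx1 peak to a member of the group was 144 bp away, 7 regions had one within 500 bp, and the median gap was 53568.5 bp. At the other side of the line, the smallest Runx1 overlap of a Runx1-bound closing region was 10 bp. Most of the regions were therefore far from any called Runx1 peak.

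Runx2 was found in both lines at 521 of the 1266 regions (41.2%, 95% Wilson interval 38.5 to 43.9), in control cells alone at 376 (29.7%, 27.2 to 32.3) and in Runx1KO cells alone at 369 (29.1%, 26.7 to 31.7). These intervals cover counting error over regions, and neighbouring regions are not fully independent. Thus 890 regions that had lost accessibility carried a called Runx2 peak in the cells that lack Runx1. Because a peak list gives no value where no peak was called, a peak in 1 line alone is a difference in calls, not a measured absence. The median Runx2 fold was 3.91 at control-only regions and 3.78 at Runx1KO-only regions, against 4.20 in control and 4.19 in Runx1KO cells at regions with both.

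**Figure D1:**
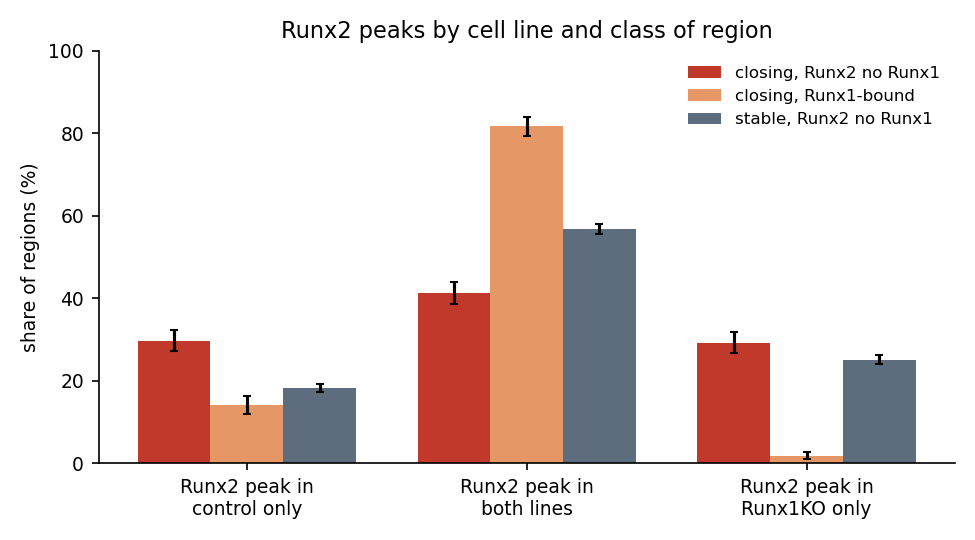
Share of regions (%) with a Runx2 peak in control cells only, in both lines or in Runx1KO cells only, for closing regions with Runx2 and no Runx1 (n = 1266), Runx1-bound closing regions (n = 1028, of which 26 had no Runx2 peak) and stable regions with Runx2 and no Runx1 (n = 6716); error bars are 95% Wilson intervals. The closing regions without Runx1 split into 29.7%, 41.2% and 29.1%, while 81.8% of the Runx1-bound closing regions had Runx2 in both lines.

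The question of whether Runx2 stays on these regions once Runx1 is gone was put to the regions that had Runx2 in control cells. Of 897 such regions without Runx1, 521 (58.1%, 54.8 to 61.3) had a Runx2 peak in Runx1KO cells too. Of 985 Runx1-bound closing regions with Runx2 in control cells, 841 (85.4%, 83.0 to 87.4) did, an odds ratio of 0.237 (95% Woolf interval 0.190 to 0.296). Of 5029 stable regions with Runx2 and no Runx1 in control cells, 3808 (75.7%, 74.5 to 76.9) did, an odds ratio of 0.444 (0.383 to 0.515). Closing regions without Runx1 thus had their Runx2 peak called again less often than either group, and both intervals lay below 1.

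Peak strength moved with this difference. Runx1-bound closing regions had stronger Runx2 peaks in control cells (median fold 5.89) than the closing regions without Runx1 (4.13), and compared within quartile bins of the control fold the odds ratio was 0.465 (0.361 to 0.60). The stable regions had a median control fold of 4.09. Within bins set anew for them and the closing regions without Runx1, the odds ratio was 0.421 (0.361 to 0.491). The shares by bin that follow use bins set over all these classes pooled. In the weakest bin 49.3% of closing regions without Runx1 kept a Runx2 peak, against 67.2% of Runx1-bound closing regions and 60.8% of stable ones. In the strongest bin the shares were 73.2%, 90.7% and 94.7%. Distance to gene starts moved with it as well: of regions more than 1000 bp from an annotated start, 55.3% of the closing and 63.8% of the stable ones kept Runx2 (odds ratio 0.701, 0.590 to 0.834), a smaller difference than over all regions. Among regions with Runx2 in 1 line alone, 369 of 745 (49.5%) had it in Runx1KO cells, against 58.0% of the stable regions (0.71, 0.604 to 0.835), a comparison chosen after the values were seen.

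**Figure D2:**
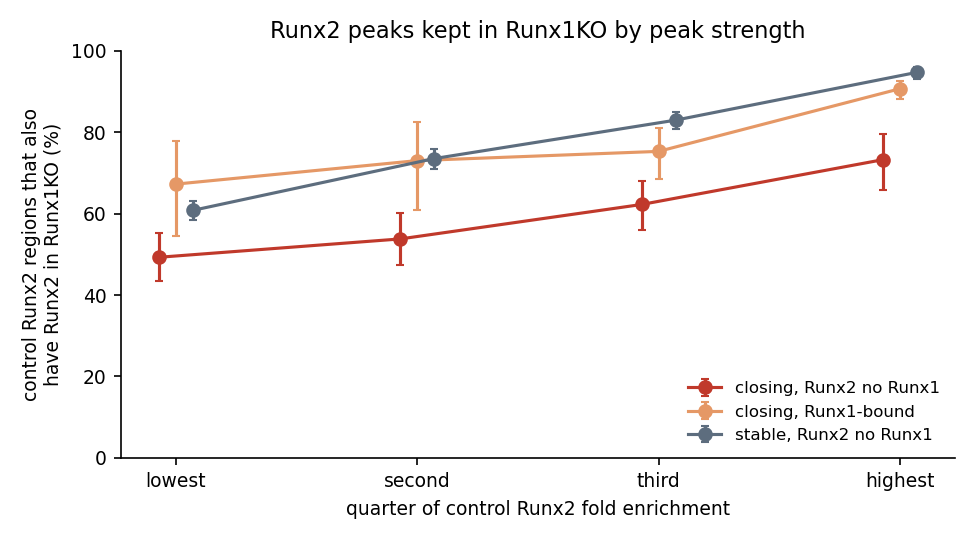
Share (%) of regions with Runx2 in control cells that also had a Runx2 peak in Runx1KO cells, by quartile bin of the control Runx2 fold enrichment, for the same classes; points are shares and bars 95% Wilson intervals. Closing regions without Runx1 rose from 49.3% in the lowest to 73.2% in the highest bin and lay below the stable regions in every bin.

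Where both lines had a peak, Runx2 enrichment at the closing regions without Runx1 had a similar median height in both. The median log2 ratio of Runx1KO to control fold was -0.02, with quartiles of -0.27 and 0.21, and 252 of 521 regions were higher in Runx1KO cells. A difference of more than 1.5-fold was seen at 43 of the 521 regions. At Runx1-bound closing regions the median log2 ratio was -0.15, and at stable regions -0.02. A ratio exists only where both lines had a peak. That was 521 of the 897 regions without Runx1 that had Runx2 in control cells, and 841 of 985 Runx1-bound ones. At these the median control fold was 4.20 and 6.11. A fall below the calling limit leaves no ratio, so the medians cannot rank the classes by loss of Runx2. The summits of the peaks in the different lines were a median of 51 bp apart in the group.

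The regions without Runx1 were mostly distal. In the GENCODE annotation of the same build, 627 (49.5%) were intronic, 584 (46.1%) intergenic, 38 (3.0%) in a UTR and 17 (1.34%) in a coding exon. An annotated transcription start lay within 1000 bp of 165 (13.0%, 11.3 to 15.0). That share was 9.34% among Runx1-bound closing regions (odds ratio 1.45, 1.11 to 1.90), 10.1% among closing regions without a Runx peak (1.33, 1.11 to 1.6) and 63.4% among the stable regions with Runx2 (0.0866, 0.0730 to 0.103). Their median width was 711 bp and their median GC content 49.3%, against 971.5 bp and 58.2% in the stable group. Promoters were 17.9% of the regions with Runx2 in both lines, 8.0% of those with Runx2 in control only and 11.4% of those with Runx2 in Runx1KO only.

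A Runx motif was present in 971 of the 1266 regions (76.7%, 74.3 to 78.9), and in 40.5% of all ATAC-seq regions. The letters TGTGGT were searched on both strands over the whole region. Runx1-bound closing regions had it more often (84.5%, odds ratio 0.602, 0.486 to 0.746), and closing regions without a Runx peak less often (45.4%, 3.97, 3.45 to 4.56). Stable regions with Runx2 and no Runx1 held it in 49.0% of cases (3.42, 2.98 to 3.93). This difference was smaller within quartile bins of GC content (2.09, 1.80 to 2.42) and among regions more than 1000 bp from a start (78.1% and 63.4%, 2.06, 1.74 to 2.42). At least 2 Runx motifs were found in 482 regions (38.1%), against 49.2% of Runx1-bound closing regions and 15.4% of the stable ones.

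The Runx motif was most frequent near the Runx2 summit. Within 50 bp of the summit of the stronger Runx2 peak, 570 of the 1266 regions (45.0%) had the middle of a Runx motif, against 55.6% of Runx1-bound closing regions with Runx2 and 19.1% of stable regions. In bins of 20 bp the share rose from 1.34% at the outer edge of the window, 300 bp upstream, to 12.2% in the bin just downstream of the summit. The Runx motif share was close to equal between Runx2 patterns: 77.9% where Runx2 was in control only, 76.6% in both and 75.6% in Runx1KO only, with intervals that overlap. The regions that gained a called Runx2 peak while closing therefore held the motif about as often as those that lost one.

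**Figure D3:**
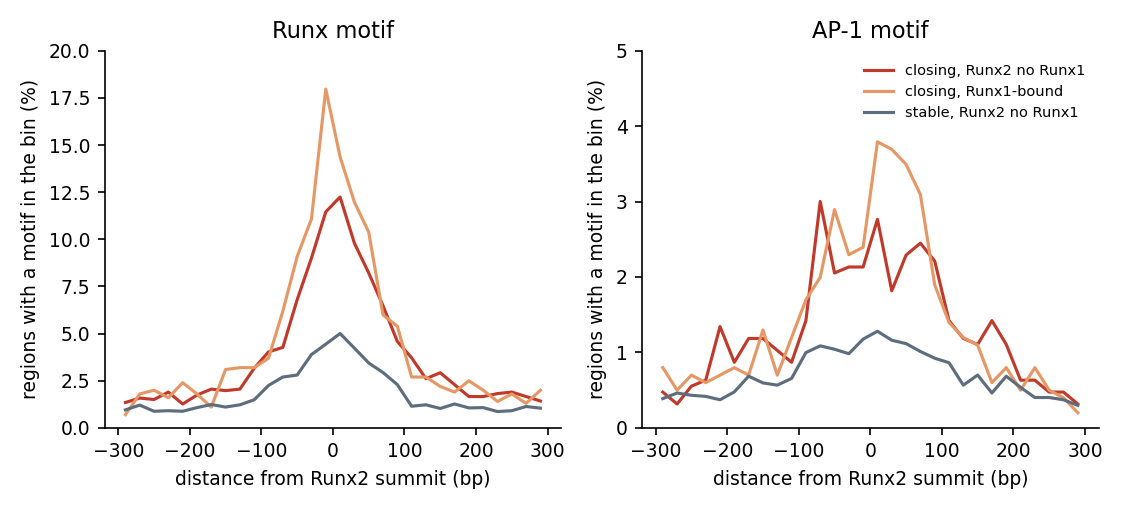
Share of regions (%) with the middle of a Runx motif (left) or an AP-1 motif (right) in each 20 bp bin from 300 bp upstream to 300 bp downstream of the stronger Runx2 summit, for closing regions with Runx2 and no Runx1, Runx1-bound closing regions with Runx2 and stable regions with Runx2 and no Runx1; the vertical scales differ. The Runx motif reached 12.2% in the closing regions without Runx1, 18% in the Runx1-bound and 5.0% in the stable ones.

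AP-1 motifs were found in 534 of the 1266 regions (42.2%, 39.5 to 44.9) and in 37.3% of all ATAC-seq regions. The share was 43.6% in Runx1-bound closing regions (odds ratio 0.944, 0.800 to 1.12) and 46.8% in closing regions without a Runx peak (0.828, 0.733 to 0.935). In the 200 bp around the strongest Runx2 summit it was 19.7%, against 24.6% in Runx1-bound closing regions (0.756, 0.619 to 0.923). The stable regions had AP-1 motifs in 24.7% of cases (2.23, 1.97 to 2.52). That difference was smaller within quartile bins of GC content (1.16, 1.01 to 1.33), and away from starts the shares were 44.3% and 41.4% (1.13, 0.978 to 1.3). Both a Runx and an AP-1 motif were present in 417 regions (32.9%), and neither in 178 (14.1%).

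Within the group the AP-1 share differed with the Runx2 pattern, a comparison chosen after the values were seen. It was 35.1% (30.5 to 40.1) where Runx2 was in control cells alone, 43.6% (39.4 to 47.9) where it was in both lines and 47.4% (42.4 to 52.5) where it was in Runx1KO cells alone. Runx1KO-only against control-only gave an odds ratio of 1.67 (1.24 to 2.24). Around the Runx2 summit the shares were 21.1% and 16.0%, with an interval that includes 1 (1.41, 0.973 to 2.05). In the stable regions with Runx2 and no Runx1 the shares in the same order were 30.2%, 21.6% and 27.6%.

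Over whole regions, the other motifs searched separated the group mainly from the stable regions. TEAD motifs (GGAATG), read by the partners of Yap1, were in 46.4% of the regions, 49.2% of Runx1-bound closing regions, 36.0% of closing regions without a Runx peak (odds ratio 1.54, 1.37 to 1.74) and 39.7% of stable ones (1.32, 1.17 to 1.49). Around the Runx2 summit TEAD also separated the group from Runx1-bound closing regions with Runx2, a comparison chosen after the values were seen. In those 200 bp the shares were 18.72% (16.67 to 20.96) in the group and 26.05% (23.43 to 28.85) in the Runx1-bound regions. For the motifs that follow, the intervals of these classes overlapped there. Zeb motifs (CAGGTG or CAGGTA), again over whole regions, were in 46.3% of the group, and in 68.0% of the stable regions (0.406, 0.359 to 0.459). They were in 44.9% of Runx1-bound closing regions and 38.6% of closing regions without a Runx peak. Ets (CCGGAAGT) and Klf (GGGTGTGGC or GGGCGTGGC) motifs, common at promoters, were in 0.948% and 3.48% of the regions, and in 8.59% and 10.1% of the stable ones. Ctcf motifs, searched as CCA, any 2 bases, AG, any 2 bases and GGC, were in 6.32% and 14.2% respectively. Hox (TAATTA) motifs were in 10.0% against 8.01%. Grhl (AACCGGTT) motifs were in 5 regions and NFI motifs (TTGGC, any 5 bases, GCCAA) in 3, too few to compare.

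Expression was measured as TPM, reads scaled for gene length and library total, and tested as log2(TPM + 1) with limma, calling a gene at over 2-fold and an adjusted p under 0.05. In the tested set of 13067 genes, 666 were lower (5.1%) and 1033 higher (7.91%) in Runx1KO cells. The 9 libraries had 12541 to 12697 genes at 1 TPM or more. Runx1 itself read 18.7, 15.6 and 17.9 TPM in control cells and 30.3, 30.1 and 28.5 TPM in Runx1KO cells. A value summed over the whole gene cannot show the loss of a single exon, so it does not check the knockout, and the same holds for Zeb1 in ZebDKO cells (16.8, 16.6 and 14.8 TPM, against 15.1, 14.2 and 15.6 in control cells). Runx2 read 6.0, 4.9 and 5.5 TPM in control and 3.9, 3.7 and 3.6 TPM in Runx1KO cells (log2 fold change -0.45 ± 0.08 SE, limma adjusted p = 0.0018), below the 2-fold limit. Runx2 read lower in every Runx1KO library than in any control library. In ZebDKO cells Runx2 read 3.1, 3.5 and 3.3 TPM (-0.59 ± 0.08). The paper reports Runx2 as unchanged in Runx1KO cells from Western blots, which measure protein rather than RNA.

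Control mK4 cells had RNA of 7 of the 12 metanephric mesenchyme and nephron progenitor markers at 1 TPM or more, 3 of which were lower in Runx1KO cells (Osr1, Gdnf and Eya1), while Six2, Wt1, Cited1, Hoxd11 and Meox1 stayed under 1 TPM in every control library. Endothelial and blood markers summed to 2.9 to 4.6 TPM and 1.9 to 2.5 TPM in control cells. Of 6 epithelial markers 5 were under 1 TPM in every control library. Their sum was 2.2 to 4.2 TPM in control and 2572.5 to 2653.9 TPM in Runx1KO cells, most of it Krt8. Krt8, Krt18, Cldn4 and Grhl2 could be tested and were higher, the last 3 entering the test through their level in Runx1KO cells alone, while Epcam was listed at 0.0 TPM and Cdh1 read 0.1 to 0.3 TPM in Runx1KO cells. None of the 6 had a closing region with Runx2 and no Runx1. Of the general mesenchyme markers 2 of 5 tested, Fn1 and Col3a1, were lower, and of the stroma markers none of 2 passed. In bulk RNA a change in the share of cells and a change per cell cannot be told apart.

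Regions were assigned to genes by the GREAT rule, in which each gene start has a basal domain of 5 kb upstream and 1 kb downstream that extends up to 1000 kb to the neighbouring domains. Of 12239 tested genes that could be placed, 5.12% were lower and 7.8% higher in Runx1KO cells. Among the 1182 tested genes assigned at least 1 closing region with Runx2 and no Runx1, 160 were lower (13.5%) and 65 higher (5.50%), with a median log2 fold change of -0.16, against -0.06 over all placed genes. The share of lower genes was 14.4% among the 1037 with a Runx1-bound closing region, 11.6% among the 3466 with a closing region without a Runx peak and 2.20% among the 8128 with no closing region. These sets overlap. Of 332 genes whose closing regions were all of this kind, 19 were lower (5.72%) and 29 higher (8.73%), close to the background. Low shares were found for every class of region that stood alone: of genes with exactly 1 closing region, 6.11% of 311 were lower where it had Runx2 and no Runx1, 7.05% of 241 where it was Runx1-bound and 7.38% of 1490 where it had no Runx peak. Genes with a region of this group and no Runx1-bound closing region were lower in 10.6% of 846 cases, those with a Runx1-bound closing region alone of the pair in 11.3% of 701, and those with both in 70 of 336 (20.8%).

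The share of lower genes was larger with more regions and at shorter distance. It was 11.2% of 953 genes with 1 such region, 19.3% of 171 with 2 and 34.5% of 58 with 3 or more. It was 20.4% of 402 genes with a region within 20 kb of the start. Of 67 tested genes whose start lay within 1000 bp of such a region, 43 were lower (64.2%) and none higher, with a median log2 fold change of -1.83. Closing regions at starts were alike in the other classes, with 51.7% of 29 genes lower for Runx1-bound and 67.7% of 189 genes for regions without a Runx peak. At starts with a stable region that had Runx2 and no Runx1, 2.14% of 4073 genes were lower and 2.97% higher. Split by Runx2 pattern, 14.7% of 409 genes were lower near control-only regions, 16.4% of 532 near regions with Runx2 in both lines and 14.1% of 411 near Runx1KO-only regions.

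**Figure D4:**
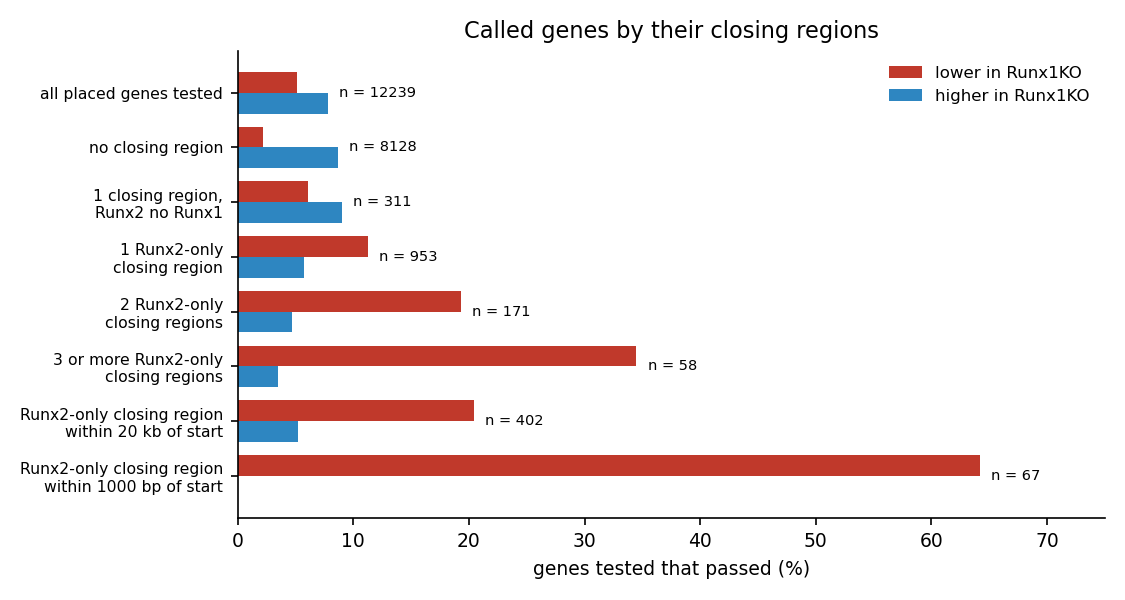
Share of tested genes (%) called lower (red) or higher (blue) in Runx1KO cells, for all placed genes and for genes grouped by their closing regions, where Runx2-only means Runx2 and no Runx1; n is the number of genes tested and groups overlap. The share of lower genes was 5.12% over all placed genes and 64.2% where such a region lay within 1000 bp of the start.

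Among genes with such a region, the 12 that fell the most are given one by one. Osr1, a zinc finger factor of early kidney mesenchyme, read 70.9, 64.1 and 64.3 TPM in control, 0.3, 0.5 and 0.4 TPM in Runx1KO and 18.7, 18.9 and 17.1 TPM in ZebDKO cells. The log2 fold change of Osr1 in Runx1KO cells was -5.59 ± 0.07 SE (limma adjusted p = 6.9e-09). Inhbb, the activin and inhibin beta B subunit, read 48.9, 45.6 and 45.4 TPM in control, 0.2, 0.1 and 0.1 TPM in Runx1KO and 4.3, 4.1 and 5.2 TPM in ZebDKO cells (-5.39 ± 0.06). Nog, which codes for the BMP antagonist noggin, read 36.7, 30.2 and 28.8 TPM in control and 0.1, 0.0 and 0.4 TPM in Runx1KO cells. The 12 were picked for their fall, so low values in Runx1KO cells follow from the choice. Their highest Runx1KO library was Col6a2 at 2.9 TPM.

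In 6 of the 12 a region sat within 1000 bp of the start, measured to its middle. At Nog it was 5 bp upstream (chr11:89162695-89165061) with Runx2 in Runx1KO cells alone, at 3.52-fold. At the linker histone gene H1fx it was 283 bp upstream (chr6:87931164-87932353, a coding exon of the overlapping Gm5577) and again Runx1KO only, at 3.30-fold, and at the kinesin gene Kif26b it was 886 bp upstream (chr1:180457365-180459374), at 5.35-fold and 168 bp from a Runx1 peak. At Inhbb it was 428 bp downstream (chr1:121317285-121319509, annotated as UTR) with Runx2 in control cells alone, at 3.10-fold. Sema5a, a semaphorin (chr15:32174134-32176327), and Sertad4 (chr1:194680824-194681390) had Runx2 in both lines, at 6.86-fold in control and 4.91-fold in Runx1KO cells and at 4.42-fold and 4.32-fold. The loss of RNA thus occurred beside start regions of every Runx2 pattern.

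For the other 6 the nearest region was farther from the start. It was 3703 bp upstream of Igfbp5, a binding protein of insulin-like growth factors (chr1:72924434-72925887, control only, 4.64-fold), and 25378 bp upstream of the collagen VI gene Col6a2 (chr10:76111405-76112101, control only, 3.16-fold), whose sequences are shown above. In an intron of Ntrk3, the neurotrophin-3 receptor gene, it was 70942 bp from the start (chr7:85651976-85652727, Runx1KO only, 3.86-fold). For Osr1, Elfn1 and B3galnt1 it was 265340, 207988 and 242395 bp away, in the latter pair inside introns of Mad1l1 and Ppm1l. B3galnt1 was listed at 0.0 TPM in all 3 Runx1KO libraries, after 34.8, 35.7 and 35.9 TPM in control cells.

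Osr1 was assigned 26 closing regions, of which 4 had Runx2 without Runx1, 3 were Runx1-bound and 19 had no Runx peak. The 3 Runx1-bound regions had Runx2 in both lines, at 8.22-, 8.87- and 11.2-fold in control and 5.28-, 7.72- and 8.94-fold in Runx1KO cells. Of the 4 without Runx1, 1 had Runx2 in control cells alone at 3.42-fold and 3 in Runx1KO cells alone, at 4.27-, 3.25- and 4.06-fold. At Inhbb, with 13 closing regions, 2 of the 4 without Runx1 were control only (3.10- and 3.91-fold) and 2 Runx1KO only (4.08- and 3.98-fold), while both Runx1-bound regions had Runx2 in both lines. No region without Runx1 at either gene had a Runx2 peak in both lines. Gdnf, the growth factor that draws the ureteric bud into the kidney mesenchyme, had 8 closing regions, 2 of them without Runx1. The one 1697 bp downstream of its start was Runx1KO only at 3.76-fold, and the one at 27680 bp had 4.32-fold in both lines.

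Genes with the most regions did not all fall. Myo10, an unconventional myosin of filopodia, had 5 and read 25.4, 23.4 and 25.4 TPM in control and 14.0, 13.8 and 13.6 TPM in Runx1KO cells (-0.80 ± 0.05, limma adjusted p = 5.7e-06, under the 2-fold limit). Phactr1 had 5 as well and was near 1 TPM in both (-0.40 ± 0.14). Of the 6 next genes, each with 4 regions, Osr1, Inhbb, Kif26b and the adaptor protein gene Sh3kbp1 (-2.89 ± 0.05) were lower. Zfp36l2, an RNA-binding protein gene, lay just past the limit (-1.02 ± 0.06) and fell under it when control replicate 1 or 3 was left out (-0.99 and -0.98). Tle3 lay just short of it (-0.94 ± 0.04).

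Of the genes with such a region, 65 were higher in Runx1KO cells. Foxj1, the regulator of motile cilia genes, read 2.2, 2.9 and 2.4 TPM in control, 63.4, 66.0 and 59.4 TPM in Runx1KO and 35.7, 36.9 and 37.3 TPM in ZebDKO cells (4.19 ± 0.08 in Runx1KO cells, limma adjusted p = 3e-08). Slc44a3, a choline transporter-like gene with 3 such regions, read 0.0, 0.1 and 0.0 TPM in control and 15.2, 14.5 and 15.2 TPM in Runx1KO cells, and 0.4, 0.1 and 0.1 TPM in ZebDKO cells. Mctp2, Cyb561, 2310007B03Rik and Tmem252 completed the 6 that rose the most, with log2 fold changes of 4.31, 4.31, 4.11 and 4.00. The 6 were picked for their rise, so the gap between their control and Runx1KO libraries follows from the choice. Slc44a3, Mctp2, Cyb561 and 2310007B03Rik entered the test through their level in Runx1KO cells alone.

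**Figure D5:**
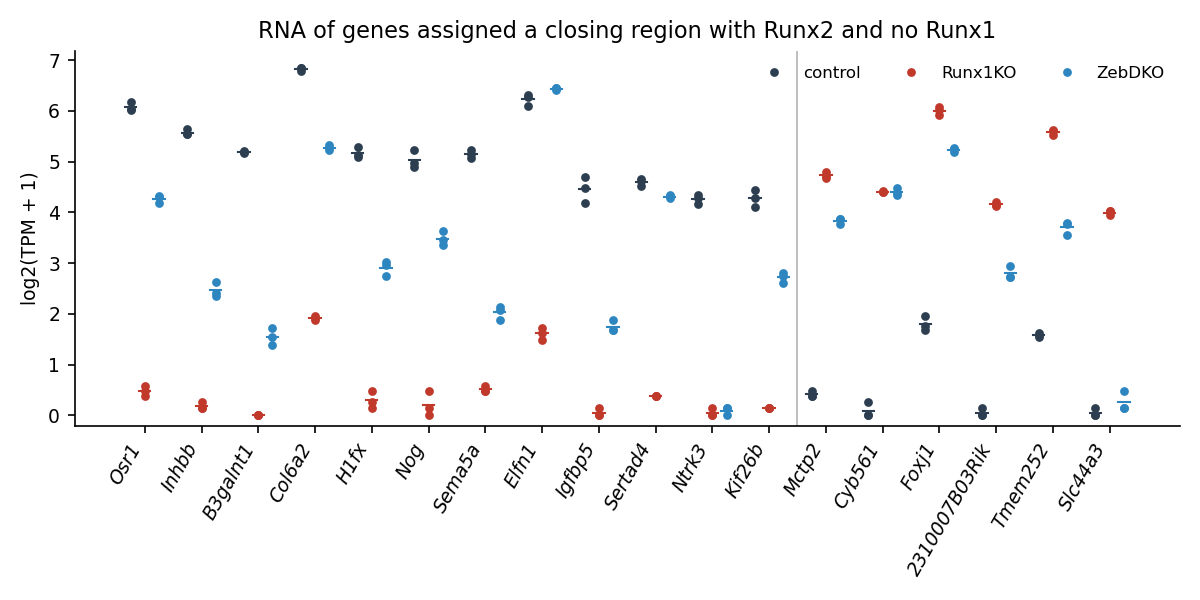
RNA level, as log2(TPM + 1), in each of 3 control, 3 Runx1KO and 3 ZebDKO libraries (points; short lines are means) for the 12 genes that fell the most and, right of the vertical line, the 6 that rose the most in Runx1KO cells among genes assigned a closing region with Runx2 and no Runx1. Osr1 fell from a mean of 66.4 to 0.4 TPM in Runx1KO cells and read 18.2 TPM in ZebDKO cells, while Elfn1 read 74.4, 2.1 and 85.7 TPM.

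ZebDKO cells, in which Runx1 was not edited, were set beside Runx1KO cells for the same genes. Runx1 RNA was not at control level there, at 9.4, 10.5 and 10.4 TPM against 18.7, 15.6 and 17.9 TPM in control cells. Its log2 fold change in ZebDKO cells was -0.73 ± 0.08 SE (limma adjusted p = 8.3e-05), under the 2-fold limit. The comparisons share the control libraries, so each is given by its own values. Of 1164 genes with such a region tested in ZebDKO cells, 129 were lower (11.1%) and 76 higher, while 883 of the 11912 placed genes tested in both comparisons were lower (7.41%) and 734 higher. Over every placed gene tested in ZebDKO cells 7.26% were lower and 7.28% higher, and over all genes tested 7.27% and 7.48%, sets that also hold genes detected in ZebDKO cells alone. Of 1146 tested directly, 134 were lower and 90 higher in Runx1KO than in ZebDKO cells, and 621 and 1115 of the 11996 placed genes tested in both, with 6.59% and 9.2% over all genes tested directly. Elfn1, a leucine-rich repeat protein gene, read 1.8, 2.3 and 2.1 TPM in Runx1KO and 86.9, 84.2 and 85.9 TPM in ZebDKO cells, a direct log2 difference of -4.82. Gdnf read 13.1, 11.4 and 13.6 TPM in control, 0.1 TPM in each Runx1KO library and 38.6, 41.4 and 39.4 TPM in ZebDKO cells, lower in the former mutant (-3.64 ± 0.08) and higher in the latter (1.58). Ntrk3, by contrast, read at most 0.1 TPM in every library of either mutant.

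Genes of the binding factors themselves were examined as fixed lists. Of the Runx factors, Runx1 was assigned 2 closing regions with Runx2 and no Runx1 among 10 closing regions, and Runx3 and Cbfb none, while Runx2, whose symbol is shared by more than 1 gene model, could not be placed. No Runx factor passed the 2-fold test. Of the 6 Tle family corepressors measured, 5 had such a region (Tle2, Tle3, Tle4, Tle6 and Aes), compared with 1182 of the 12239 placed genes, and none passed. Tle3 read 27.1, 25.9 and 27.9 TPM in control and 13.7, 13.9 and 13.1 TPM in Runx1KO cells, and Tle4, also under the limit, had a log2 fold change of 0.95 ± 0.05. Of 8 AP-1 genes tested, Fos (1.86 ± 0.03), Fosb (1.81 ± 0.05) and Atf3 (1.43 ± 0.04) were higher, none was lower, and none of the 10 listed had such a region. Of 7 genes of the TEAD pathway none passed, though Tead3 lay barely short of the 2-fold limit (-0.99995 ± 0.05, limma adjusted p = 3.4e-06). Tead1, Tead3 and Wwtr1 had such a region. Of 11 loci that the study displays, chosen there with these samples and so no independent evidence, 7 had such a region (Gdnf, Pak3, Osr1, Twist2, Inhbb, Lef1 and Zeb1) and all 11 were lower.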

How the data were processed

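RNA-seq, ATAC-seq and ChIP-seq of mK4 cells were taken as deposited. Per the methods, Trim Galore, STAR (to mm9) and featureCounts served for trimming, alignment and counting. The authors called ChIP-seq peaks with MACS2 on combined replicates, removed peaks also found by the Runx1 antibody in Runx1KO cells, and deposited for each peak a fold ratio over local background, -log10 p and q-values and an integer score. Of these the fold and the positions were used, and the q-value in an alternative. The methods state broad peaks with a q limit of 0.01, whereas the deposited lists have narrow-peak columns and hold peaks with larger q-values, so the limit behind a called or uncalled peak is not known. The ATAC-seq lists deposited by the authors hold regions found in at least 2 of 3 replicates, split by a 2-fold change. Their log2 fold change and unlabelled -log10 columns are the authors' own comparison and were not used. The authors' deposited TPM table lists 24953 genes in 9 libraries. TPM and peak lists keep no read numbers, so depth is unknown. Strand use in counting is not given in the sources used here. Knockout clones were picked, but the labels do not say whether replicates came from separate clones or cultures, so p-values measure the spread between these libraries only, which may be technical. Runx1 ChIP-seq peaks of Runx1KO cells were not analysed here.

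Overlap was at least 1 bp. Odds ratios carry 95% Woolf intervals, two-sided, or Mantel-Haenszel ones within quartile bins. Motifs were exact letters on both strands of the mm9 sequence, with GENCODE starts. Genes reaching 1 TPM in 3 or more of the 6 libraries compared were tested with limma 3.58.1 (trend) on log2(TPM + 1) and adjusted over all genes tested, by Benjamini-Hochberg. The model was run on simulated libraries with independent spread and set changes well past the 2-fold limit. That run does not bear on differences between clones or on genes near the limit. Of 13067 genes tested 12239 could be placed, by symbol or RefSeq synonym. Named genes were the 12 lowest and 6 highest called genes with such a region, the 8 with the most such regions and fixed lists. Named regions were the 5 strongest in each line and the ones nearest to the 12 lowest genes. Same-numbered replicates did not deviate together (correlations -0.05 to 0.04), so no pairing was used. Intervals were not adjusted for the number of comparisons. Alternatives covered overlap, peak strength, window, width, GC content, spacing, pseudocount, filter, scaling and replicates, and those by distance to a start, and by window and width for the other motifs, were added after seeing the data. The regions, lists and tests were chosen with earlier results of these data known.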

Additional observations from a re-analysis of the deposited data

How the results depend on the processing

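The count of regions was 609 with Runx2 peaks at or above the median fold of their list only. Of the alternatives to a main result, 179 kept direction and side of the threshold or, for a count, stayed close to the main count. Of the rest, 8 were weaker, 3 stronger and 1 reversed, and 9 were counts that moved further. AP-1 against Runx1-bound regions passed it in the 200 bp around the summit (odds ratio 0.756), AP-1 against stable regions no longer did away from starts (1.13), and AP-1 in Runx1KO-only against control-only regions no longer did at the summit (1.41). Against closing regions without a Runx peak, in the middle 200 bp and within quartile bins of width respectively, Zeb (1.02 and 1.04) and Klf (1.39 and 1.28) no longer passed and Hox did (0.638 and 0.798). Ctcf reversed in the middle (0.792) and was weaker by width (1.16), and Grhl was weaker in the middle (5.10). The cause was not tested. Region width differs between the classes, and the width bins remove only part of it.

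Lower genes in Runx1KO cells numbered 442 with a filter of 5 TPM and 2444 at 1.3-fold, and higher genes 2413 at 1.3-fold. At 1.3-fold, 393 of the 1182 tested genes with such a region were lower and 169 higher, beside 2444 and 2413 of all 13067 tested. Within 20 kb of a start, 82 of 402 tested genes were lower (20.4%) and 21 higher (5.22%). With the nearest start within 100 kb, 108 of 614 were lower (17.6%) and 31 higher (5.05%). By the GREAT rule the shares were 13.5% and 5.50%. Leaving out each replicate gave 660 to 681 lower and 1018 to 1041 higher genes, and 155 to 161 lower and 65 to 70 higher genes with such a region. With the replicate number as a block, 669 and 1039 genes were lower and higher, 160 and 65 of those with such a region. Of the named genes' alternatives, 205 kept their call and 2 lost it, both for Zfp36l2. Peak lists without values per replicate and an unknown depth limit all statements on binding.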
